A study of Mus musculus with 4 samples.

Results

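Cholesterol synthesis genes and the genes that regulate them through the transcription factor SREBP2 were compared between fibroblasts of 2 genotypes, wild-type and SMRTmRID. The genes were a list of 27 symbols: 19 enzymes in pathway order, 6 regulators and 2 genes of sterol transport and storage. A named probe set was found for 25 of the 27, among 18193 genes named on the array. The thiolase gene Acat2 and the sterol esterification gene Soat1 had none and were not analysed here. Total RNA was measured on 4 single-colour Affymetrix arrays, 2 per genotype. They were 3T3-MEFs, a permanently growing line made by repeated passage of fibroblasts from mouse embryos, and all were harvested undifferentiated when they reached confluence. SMRT is a corepressor, a protein brought to genes by nuclear receptors to keep them off, and in SMRTmRID its receptor interaction domain is mutated. Both genotypes were otherwise handled alike as far as the labels say, and no drug or hormone is named for either. How many embryos or lines stand behind a genotype is not given in the sources used here. The titles call the arrays technical replicates, so the p-values measure technical spread only and say nothing about how lines of 1 genotype vary.

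Animal cells build cholesterol from acetyl-CoA. Mevalonate is made first, then the isoprenoid building blocks, which are joined into squalene, and squalene is closed into a ring and trimmed to cholesterol. When sterol in the endoplasmic reticulum is low, the escort protein SCAP carries SREBP2 to the Golgi, where a pair of proteases cut it and release the part that enters the nucleus and switches on most genes of the pathway. When sterol is plentiful, INSIG proteins hold SCAP back. In fibroblasts the pathway supplies membrane cholesterol and the lipid anchors of prenylated proteins.

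The fibroblast markers differed between the genotypes. Col1a1 and Vim were high on all 4 arrays, with lowest signals of 12691 and 12205. Thy1, however, had a mean of 13.6 in wild-type against 3178 in SMRTmRID, Lum 3.15 against 183, Fap 6.62 against 478, Dcn 62.3 against 8827 and Pdgfra 254 against 4959. Thy1, Lum and Fap were thus under the filter on mean signal in wild-type and passed it through SMRTmRID. Of 12 fibroblast markers 8 were called higher and 3 lower, beside 30.3% and 35.0% of all genes tested. The 3 were Vim (-0.16), Fn1 (-0.18) and S100a4 (-0.31), as log2 differences (adjusted p = 0.0280, 0.0115 and 1.65e-04 by limma). Summed signals of the 12 markers went from 70205 and 72023 to 97534 and 93018. Of 4 adipocyte markers with a probe set only Fabp4 passed the filter, and their summed signal went from 217 and 224 to 1356 and 1429.8, while Adipoq stayed at or below 15.3. Summed signals of 4 endothelial markers lay between 64.2 and 77.1, with Pecam1 at most 3.09. Those of 5 epithelial markers lay between 199 and 312, and those of 5 blood and macrophage markers between 185 and 368. Among these Epcam had a difference of -0.37 (adjusted p = 0.0249, limma), and Lyz2 one of 1.65, from 27.4 and 15.6 to 104.7 and 95.3 (adjusted p = 2.65e-04, limma). The epithelial marker Cdh1, under the filter and so not tested, went from 55.9 and 42.3 in wild-type to 2.41 and 1.61 in SMRTmRID. In the muscle list 4 markers summed to 364 and 216 in wild-type and to 70.8 and 55.7 in SMRTmRID. Most of the wild-type sum was Acta1, which went from 324.2 and 203.4 to 8.63 and 4.35, a difference of -3.61. The other muscle markers were under the filter and so not tested. Of these, Myog and Des lay higher on both SMRTmRID arrays than on both wild-type arrays, and Myod1 overlapped between the genotypes. The part of these markers in the results below was not tested. Genotypes were far apart in general: 65.2% of 11057 tested genes differed (limma, Benjamini-Hochberg adjusted p under 0.05), so counts among the sterol genes are read against that level.

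Genes of the pathway were mostly higher in SMRTmRID. Of the 25 genes with a probe set, which all passed the filter, 16 rose, 2 fell and the other 7 were not called. Among all genes tested, 30.3% rose and 35.0% fell. These are averages over whole cultures, in which fewer cells making an RNA and less RNA per cell cannot be told apart. The 11 enzymes that rose were spread over both arms of the route, 5 of 8 before squalene and 6 of 10 after it, and no enzyme fell. A rise of over 0.5 on the log2 scale was called for 11 of the 25 genes and a fall of that size for none, against 42.3% of all genes past that size in either direction and 20.9% higher. The median log2 difference of the 25 was 0.35, against -0.05 for all genes tested. Each difference is the SMRTmRID mean less the wild-type mean of log2(signal + 16), where 16 is a constant that damps noise at low signal. Both SMRTmRID arrays lay above both wild-type arrays for 20 of the 25 genes and below them for 3. The shares among all genes tested were 38.1% and 43.4%, or 81.5% in either direction. When each array was centred on its own median, the counts were 11 higher and 2 lower, against 2472 higher and 4733 lower among the 11057 genes tested. That centring moved the median of all genes from -0.05 to -0.21 and that of the 25 genes from 0.35 to 0.19, and it took the share of higher genes among all calls from 46.4% to 34.3%.

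**Figure D1:**
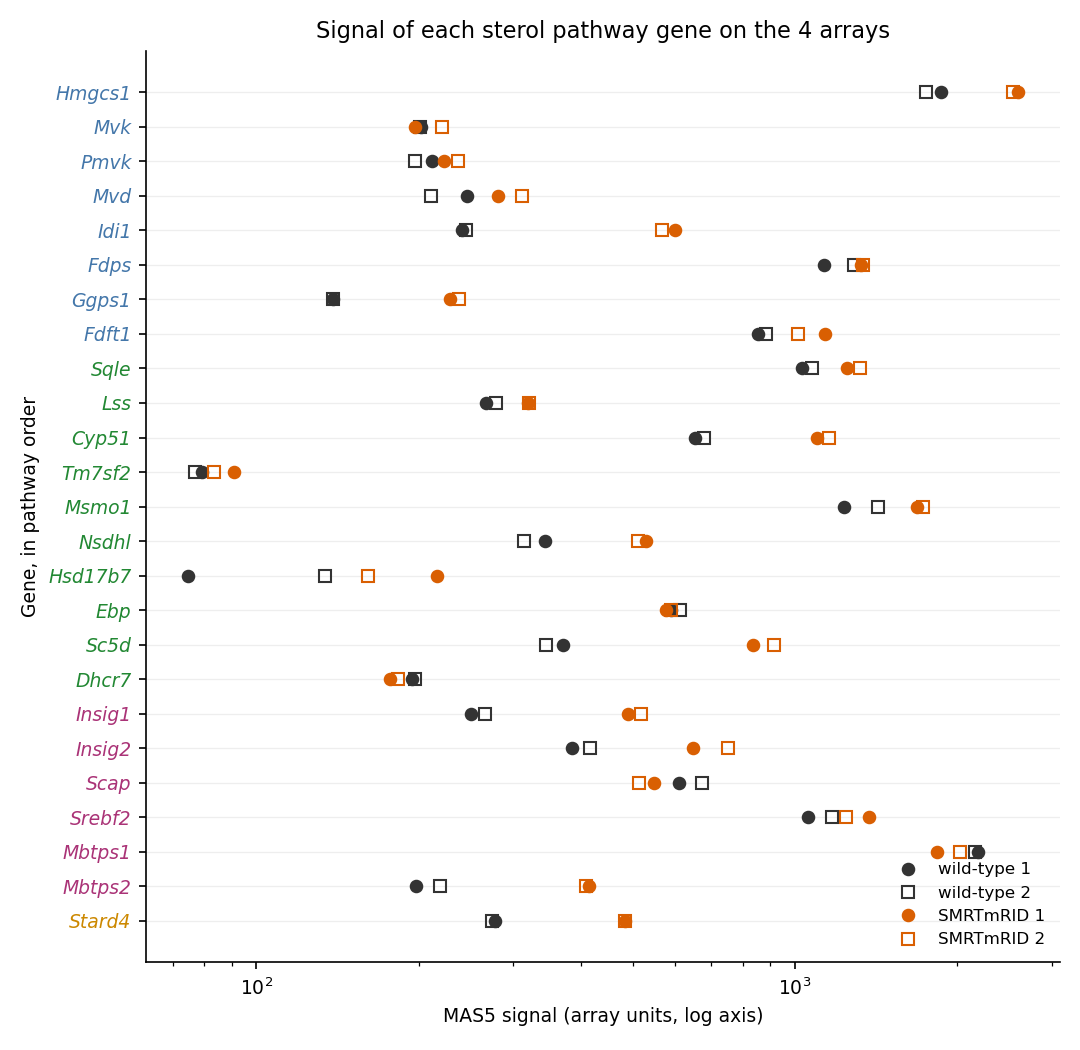
MAS5 signal (array units, log axis) of the 25 genes in pathway order, 1 point per array, wild-type in black and SMRTmRID in orange; gene names are coloured by role (blue before squalene, green squalene to cholesterol, purple regulation, ochre transport). Both orange points lie to the right of both black ones for 20 genes, with the widest gaps at Idi1 and Sc5d, and to the left for Dhcr7, Scap and Mbtps1; horizontal positions are compared within a gene only.

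Promoters are shown for 4 of the genes that rose, to place known control elements of the pathway beside their values. Hmgcs1 was shown for its motif, as the one gene with a match to the sterol regulatory element searched. Sc5d and Idi1, the enzyme genes with the largest rises, and Insig1, the regulator with the largest rise apart from Mbtps2, were added after their values were seen. Each line gives the 250 bases upstream of the gene start, 5′ to 3′ in the direction of the gene, from RefSeq on GRCm38.p6. Capitals mark matches to the motifs described next.
Hmgcs1 (chr13:119690101-119690350, plus strand): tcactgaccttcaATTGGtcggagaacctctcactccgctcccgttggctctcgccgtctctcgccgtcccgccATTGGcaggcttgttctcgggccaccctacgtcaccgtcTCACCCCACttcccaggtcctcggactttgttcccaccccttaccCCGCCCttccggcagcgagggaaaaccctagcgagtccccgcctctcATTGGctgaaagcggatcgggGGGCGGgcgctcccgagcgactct
Idi1 (chr13:8885356-8885605, plus strand): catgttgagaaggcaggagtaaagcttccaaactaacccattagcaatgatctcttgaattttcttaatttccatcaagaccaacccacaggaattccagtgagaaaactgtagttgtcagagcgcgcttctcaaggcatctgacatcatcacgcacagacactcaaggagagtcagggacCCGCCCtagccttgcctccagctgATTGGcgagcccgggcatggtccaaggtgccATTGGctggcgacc
Sc5d (chr9:42264301-42264550, minus strand): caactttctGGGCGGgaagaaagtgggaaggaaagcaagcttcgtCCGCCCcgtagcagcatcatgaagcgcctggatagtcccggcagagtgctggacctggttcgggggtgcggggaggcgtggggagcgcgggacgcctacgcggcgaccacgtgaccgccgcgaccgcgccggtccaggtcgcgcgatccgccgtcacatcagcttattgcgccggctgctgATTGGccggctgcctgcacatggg
Insig1 (chr5:28071162-28071411, plus strand): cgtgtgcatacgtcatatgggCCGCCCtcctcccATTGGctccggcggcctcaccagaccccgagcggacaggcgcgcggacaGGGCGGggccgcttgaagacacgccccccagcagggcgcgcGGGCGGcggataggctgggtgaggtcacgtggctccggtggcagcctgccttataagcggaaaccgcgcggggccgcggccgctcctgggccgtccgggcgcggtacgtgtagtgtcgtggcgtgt

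Capitals are matches on either strand to TCACNCCAC, the sterol regulatory element that SREBPs bind, to CCAAT, the box bound by NF-Y, and to GGGCGG, the GC box bound by Sp1, and no matches overlapped in these 4 promoters. In Hmgcs1 the sterol element reads TCACCCCAC and lies at -137 to -129 from the gene start, between inverted CCAAT boxes that begin at -176 and -45. Promoters were found for 21 of the 25 genes, 27 promoters in all. The sterol element was present in 1 of the 27 (3.70%), against 1.05% of all 32851 promoters of this length. CCAAT was present in 18 of the 27 (66.7%), against 33.8% of all promoters and 35.3% of those of genes tested here. GGGCGG was present in 20 of the 27 (74.1%), against 32.7% of all and 58.5% of those of genes tested. The matches describe these letters in these windows. None of these letters were in the Mbtps2 window. Mbtps1 and 1 of the 2 windows of Scap, the genes that fell, held a GC box, and neither gene had CCAAT there. CCAAT was also present in genes that were not called, Mvk, Lss, Tm7sf2 and Ebp, and in a window each of Pmvk and Dhcr7. How the motifs relate to the differences was not tested.

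The first steps, from acetyl-CoA units to the isoprenoid diphosphates, were uneven. Hmgcs1, the cytosolic synthase that makes HMG-CoA, read 1868 and 1754 in wild-type against 2599 and 2547 in SMRTmRID. The arrays did not overlap, and the log2 difference was 0.50 ± 0.05 (SE, n = 2 arrays per genotype, adjusted p = 1.68e-05 by limma). Genes of the 3 enzymes that turn mevalonate into isopentenyl diphosphate had smaller differences. The kinase gene Mvk read 201.7 and 201.3 against 197 and 221, a difference of 0.05 with a 95% interval from -0.20 to 0.30. The second kinase gene, Pmvk, differed by 0.16 (interval -0.08 to 0.39). Neither passed, and under scalings by quantiles or array medians the sign of Mvk turned, as did that of Pmvk under array medians. Mvd, the decarboxylase gene, rose from 246 and 211 to 281 and 312, a difference of 0.35 ± 0.11 (SE, adjusted p = 0.0164 by limma). That call was lost without wild-type replicate 2 or without SMRTmRID replicate 2 (adjusted p = 0.0952 each, limma), with quantile normalization (0.0534) and with array medians (0.181).

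Idi1, the isomerase gene that supplies the second isoprenoid building block, showed one of the largest changes of the pathway. It went from 240.4 and 244.5 to 598 and 568, and the genotypes lay far apart relative to the arrays within each. The log2 difference was 1.21 ± 0.08 (SE), or 2.32-fold on the signal + 16 scale (adjusted p = 8.91e-07, limma), and 93.1% of all genes tested had a lower value. Farnesyl diphosphate, the branch point, is made by the product of Fdps. Fdps read 1130.3 and 1286.5 against 1328 and 1338, a difference of 0.14 that did not pass (interval -0.01 to 0.29, adjusted p = 0.0835 by limma) and had the opposite sign, -0.02, with array medians. It did pass without wild-type replicate 2 (0.23, adjusted p = 0.0101, limma), with quantile normalization (0.21, 0.0139) and with the replicate numbers as a block (0.0356). Beyond the branch point Ggps1 and Fdft1 rose. Ggps1, whose product makes the anchor of geranylgeranylated proteins, went from 138.8 and 138.6 to 229 and 238, a difference of 0.69 ± 0.11 (SE, adjusted p = 4.54e-04, limma). Fdft1, the squalene synthase gene and the first enzyme committed to sterols, went from 854 and 882 to 1137 and 1014, a difference of 0.30 ± 0.07 (SE, adjusted p = 0.00278, limma). For Fdft1 the mean over all its probe sets gave -0.17 (adjusted p = 0.267, limma), and its 2 dimmest probe sets, with signals of 48.0 or less, had values of -0.71 and -0.46. With array medians its difference was 0.14 and did not pass (0.241).

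From squalene onward the largest changes were in demethylation and desaturation. Sqle, the squalene epoxidase gene, read 1030.3 and 1077.5 against 1248 and 1321, a rise of 0.28 ± 0.06 (SE, adjusted p = 0.00159, limma) that did not pass with array medians (0.12, 0.319). Lss, the ring-closing lanosterol synthase gene, read 267 and 278.5 against 319 and 320.3. Its arrays did not overlap, but the difference of 0.22 (interval 0.02 to 0.41) missed the threshold (adjusted p = 0.0502, limma), and over 14 other settings its adjusted p lay between 0.0172 and 0.717, under 0.05 in 5 of them. Cyp51, the cytochrome P450 that starts the demethylation of lanosterol, rose from 652 and 677 to 1099 and 1155, a difference of 0.75 ± 0.06 (SE, adjusted p = 3.24e-06, limma). Tm7sf2, a sterol reductase gene, had signals between 77.0 and 90.8 and a difference of 0.13 that did not pass (interval -0.26 to 0.52) and turned sign under quantile and median scaling.

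The 3 genes that remove the paired methyl groups rose together. Msmo1, the methylsterol monooxygenase gene, went from 1235 and 1424 to 1685 and 1733, a difference of 0.36 ± 0.07 (SE, adjusted p = 0.00113, limma), and did not pass with array medians (0.0831). Nsdhl, the dehydrogenase gene of the same reaction sequence, went from 343.5 and 314.5 to 529.5 and 510.2, a difference of 0.64 ± 0.08 (SE, adjusted p = 7.20e-05, limma). Hsd17b7, the ketoreductase gene, read 74.5 and 134 in wild-type against 216 and 161 in SMRTmRID. Its arrays of a genotype were far apart from each other, so the difference of 0.80 ± 0.23 (SE, adjusted p = 0.0132, limma) was the least precise of the pathway. Leaving out wild-type replicate 1 gave 0.43 (adjusted p = 0.0668) and leaving out SMRTmRID replicate 1 gave 0.60 (adjusted p = 0.0775, limma for both). It did not pass then, nor without the filter (0.0522) or without a variance trend (0.0765), and the mean of its probe sets was 0.46.

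Sc5d, the desaturase gene of the late pathway, changed most. Its signals went from 371 and 345.5 to 837 and 915, a change of 1.25 ± 0.07 (SE) or 2.38-fold on the signal + 16 scale (adjusted p = 5.17e-07, limma). Its neighbours in the pathway were different. Ebp, the isomerase gene just before it, read 588 and 612 against 576 and 589.5, a difference of -0.04 with an interval from -0.19 to 0.10. Dhcr7, a reductase gene of the last steps, read 195 and 197 against 177 and 183, a difference of -0.11 (interval -0.36 to 0.14, adjusted p = 0.400 by limma) although both SMRTmRID arrays lay below both wild-type arrays.

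**Figure D2:**
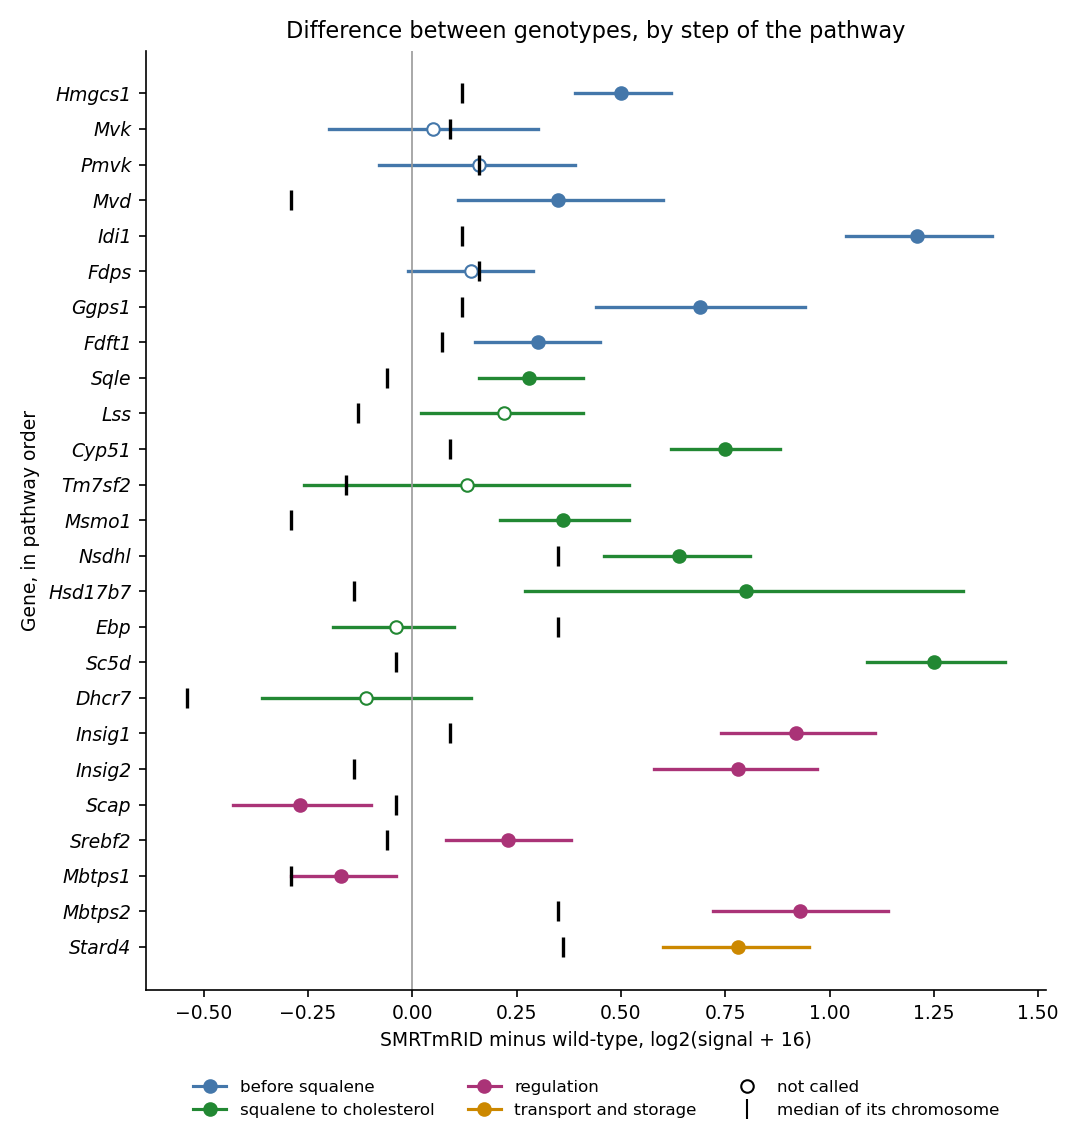
Log2 difference between genotypes (SMRTmRID minus wild-type, log2(signal + 16)) of each gene in pathway order with limma's 95% interval; filled points passed the test, open points did not, and a black tick marks the median of all tested genes on the same chromosome. Filled points to the right of 0 run from Hmgcs1 to Stard4, Scap and Mbtps1 alone are filled to the left, and Ebp and Dhcr7 are open to the left of 0.

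The regulators moved in both directions. Insig1, which encodes the anchor protein that is itself a classic target of SREBPs, read 250.3 and 265 in wild-type against 489.5 and 518 in SMRTmRID. The difference was 0.92 ± 0.08 (SE, adjusted p = 7.18e-06, limma). Its paralog Insig2 rose from 385 and 417 to 647 and 752.5, a difference of 0.78 ± 0.09 (SE, adjusted p = 3.29e-05, limma), and its 2 other probe sets above the filter gave 0.59 and 0.99. Scap, the escort gene, went the other way. It read 610.0 and 671 against 547 and 513, a difference of -0.27 ± 0.07 (SE, adjusted p = 0.00986, limma). Leaving out wild-type replicate 2 (0.0678) or SMRTmRID replicate 2 (0.0555) lost the call, as did having no variance trend (0.0537) and taking the mean of its probe sets (-0.12, adjusted p = 0.606, limma for all).

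Srebf2, the gene of SREBP2 itself, could not be given a direction, and it is among the 16 by its brightest probe set alone. Its brightest probe set read 1059 and 1170.4 against 1374 and 1247, a difference of 0.23 ± 0.07 (SE, adjusted p = 0.0143, limma). Its other probe set read 715 and 763 against 607 and 619, a difference of -0.26 that passed in a fit over probe sets (adjusted p = 0.00658, limma). The mean of both was -0.02 (adjusted p = 0.832, limma). With wild-type replicate 1 left out the rise on the brightest probe set was 0.16 and did not pass (0.0925), nor did it with SMRTmRID replicate 1 left out (0.0967), with array medians (0.583) or without a variance trend (0.0978, limma for all).

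Genes of the proteases that release SREBP2 had opposite signs in the main fit. Both lay above the medians of their chromosomes, Mbtps1 by 0.13 and Mbtps2 by 0.58. Mbtps1, the protease gene of the first cut, read 2188 and 2157 against 1839.9 and 2029, a difference of -0.17 ± 0.06 (SE, adjusted p = 0.0253, limma). That small fall passed in 7 of 14 other settings, and not without wild-type replicate 1 (0.0842), wild-type replicate 2 (0.0554) or SMRTmRID replicate 1 (-0.10, 0.176, limma for all). With quantile normalization it was -0.04 (adjusted p = 0.599, limma), and with array medians -0.33. Mbtps2, the protease gene of the second cut, read 198 and 219 in wild-type against 415 and 408.5 in SMRTmRID. Its difference of 0.93 ± 0.09 (SE), 1.91-fold on the signal + 16 scale, passed in every one of 14 other settings (highest adjusted p = 0.00165, limma). Stard4, which encodes a soluble carrier that brings sterol to the endoplasmic reticulum, read 278 and 273 against 484 and 483, a difference of 0.78 ± 0.08 (SE, adjusted p = 1.56e-05, limma).

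A core of 10 genes kept its call throughout: Hmgcs1, Idi1, Ggps1, Cyp51, Nsdhl, Sc5d, Insig1, Insig2, Mbtps2 and Stard4. Each rose in all of up to 14 other settings in which it was tested. These covered pseudocounts, filters, scalings, probe set rules, the block and each array left out. The setting that tested probe sets one by one read each gene from the same brightest probe set, so it left dimmer ones aside. The same 10 were called when the test asked for a change above 0.3 on the log2 scale (limma's treat), against 18.8% of all genes tested. No gene of the 25 was lower by that test, against 19.6% of all.

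Probe sets of the same gene mostly moved alike. The 25 genes had 57 probe sets, 49 of them above the filter. Of the 24 that were not the brightest of their gene, 22 had the sign of the brightest and 2 did not, 1 for Srebf2 and 1 for Lss (-0.01). Sizes differed more than signs. Sc5d gave 1.25 on its brightest probe set but 2.71 and 1.65 on dimmer ones, which read 44.3 and 53.6 against 419 and 399.7, and 41.9 and 38.5 against 159.8 and 160.5. Lss gave 0.22 and 1.17 on its 2 brightest, and the second, at 45.7 and 25.1 against 103 and 92.5, passed in the fit over probe sets (adjusted p = 0.00230, limma). Ggps1 gave 0.69, 0.66, 0.44 and 0.12. The probe set at 0.12 read 171.0 and 160.5 against 176.2 and 185.6, and did not pass in that fit (adjusted p = 0.411, limma). In wild-type it was brighter than the probe set used, at 138.8 and 138.6. Stard4 gave 0.78, 0.90 and 0.25, and its probe set at 0.25 was also the brighter in wild-type, at 308.6 and 340.4. All 4 bright probe sets of Hmgcs1 lay between 0.48 and 0.77, and both of Idi1 at 1.21 and 1.25.

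**Figure D3:**
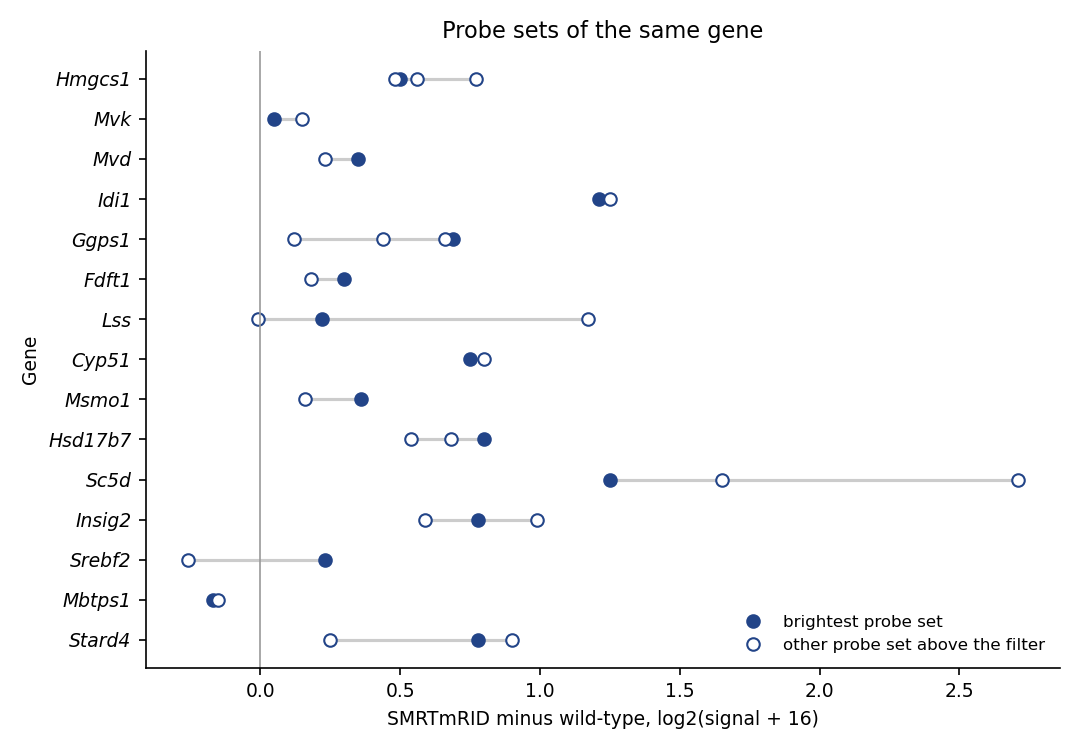
Log2 difference (SMRTmRID minus wild-type, log2(signal + 16)) of every probe set above the filter for the 15 genes that have several; filled points are the brightest probe set of a gene and open points the others. Most genes lie wholly to the right of 0, Srebf2 spans it from -0.26 to 0.23, and Sc5d spreads from 1.25 to 2.71.

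Whole chromosomes differed in level between the genotypes, and some of the 25 genes lie on chromosomes that stood apart. The median log2 difference of tested genes was 0.35 on chromosome X (339 genes), 0.36 on 18 (283 genes), -0.29 on 8 (617 genes) and -0.54 on 7 (814 genes), and between -0.23 and 0.16 on the others. On X, Nsdhl lay 0.29 and Mbtps2 0.58 above the chromosome median and Ebp 0.39 below it. Stard4, on 18, lay 0.42 above it. On 8, Mvd and Msmo1 lay 0.65 and 0.66 above their median, and Mbtps1 0.13 above it although it fell. Dhcr7, on 7, lay 0.43 above its median. Relative to their chromosomes 20 of the 25 genes were positive, with a median of 0.38. Sc5d (1.30), Idi1 (1.09), Hsd17b7 (0.94), Insig2 (0.92) and Insig1 (0.83) led that order. Mvk, Pmvk and Fdps came to -0.04, 0.00 and -0.01. The part of chromosome level in each gene's difference was not tested.

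Genes around the core pathway were also measured. In 6 lists of such genes 56 of 61 had a probe set, and all 56 were tested. How these lists differ from the core was not tested. Of these 16 rose and 25 fell, with a median of -0.18, and the shares among all genes were 30.3% and 35.0%. The isoprenoid branch, which attaches farnesyl and geranylgeranyl anchors and makes dolichol and ubiquinone, had 8 of 13 genes lower and 3 higher. Fntb and Fnta, both subunits of farnesyltransferase, fell from 251.5 and 250.6 to 116 and 107 and from 2796 and 2929 to 1990.3 and 1867, differences of -1.07 and -0.57. Nus1, a subunit of the enzyme that makes dolichol precursors, Pggt1b, a subunit of the enzyme that attaches the geranylgeranyl anchor, and the prenyl-protein protease gene Zmpste24 rose by 0.67, 0.57 and 0.40. Pggt1b was 1.18 with the mean of its probe sets, and Zmpste24 was 0.24 and not called with array medians (adjusted p = 0.0528, limma). Dhdds, in the same list as Nus1, was lower, with -0.39 (adjusted p = 0.00382, limma). Of the 8 that fell, Rabggta was not called without wild-type replicate 2 or SMRTmRID replicate 2, Dolk without wild-type replicate 1 or SMRTmRID replicate 1, and Rabggtb without wild-type replicate 1, wild-type replicate 2 or SMRTmRID replicate 1 (highest adjusted p = 0.135, limma). Among 5 genes of acetyl-CoA supply 3 rose and 1 fell. Acss2, the acetyl-CoA synthetase gene and an SREBP target, went from 110 and 68.0 to 151 and 174, a difference of 0.79 that was 0.50 without wild-type replicate 2, and Acat1 rose by 0.31, which was 0.15 and not called with array medians (adjusted p = 0.207, limma). Acly, the ATP citrate lyase gene, had 0.19, or 0.02 with array medians, and did not pass without wild-type replicate 1 or SMRTmRID replicate 1 (highest adjusted p = 0.0963, limma). Aacs had a difference of -0.22 that did not pass without wild-type replicate 2 or SMRTmRID replicate 1 (highest adjusted p = 0.141, limma).

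Partners of the sterol enzymes were led by Cyb5a, the cytochrome b5 gene that donates electrons to Sc5d and Msmo1. Cyb5a went from 2239 and 2129 to 5464 and 5299, a difference of 1.30 ± 0.05 (SE, adjusted p = 2.72e-08, limma), on chromosome 18. Of 7 such genes 2 rose and 1 fell, beside 30.3% and 35.0% of all genes tested. The second, the reductase gene Cyb5r3, had 0.14, and its call was lost without wild-type replicate 1, wild-type replicate 2 or SMRTmRID replicate 1 (0.07 in the last, adjusted p = 0.234, limma) and turned to -0.03 with array medians. Erg28, a scaffold of the demethylating enzymes, fell by 0.49. In the list of sterol sensing and degradation in the endoplasmic reticulum 5 of 8 genes fell and 2 rose, against 35.0% and 30.3% of all genes tested. Those that fell were Nploc4 (-0.42), Ube2g2 and Erlin2 (-0.37 each), Ufd1 (-0.27) and Aup1 (-0.19). Ufd1 was not called without wild-type replicate 1 or SMRTmRID replicate 1, nor Aup1 without wild-type replicate 2 (-0.13, adjusted p = 0.243, limma), SMRTmRID replicate 1 or SMRTmRID replicate 2. The other 2 that passed rose, Pgrmc1 by 0.81 and Erlin1 by 0.32, the latter not with the mean of its probe sets (-0.02) or with array medians (0.16). Pgrmc1, which encodes a haem-binding partner of cytochrome P450 enzymes, lies on X and read 1778 and 1747 against 3111 and 3112.5.

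Of 14 genes of lipoprotein uptake and cholesterol transport 3 were higher and 5 lower, beside 30.3% and 35.0% of all genes. Vldlr, the receptor gene for very low density lipoprotein, fell from 1747 and 1721 to 780.0 and 782, a difference of -1.13 ± 0.05 (SE, adjusted p = 9.26e-08, limma) that was -0.71 with the mean of its probe sets. Lrp8, another receptor of that family, fell by 0.89, and Lipa, the lysosomal lipase that frees cholesterol from its esters, rose by 0.61. The lipoprotein receptor genes Lrp1 and Scarb1 rose by 0.56 and 0.46. Cav1, the caveolin gene, had -0.55, and the carrier gene Npc2 -0.22. Npc2, counted here as lower, was called higher with the mean of its probe sets (0.24, adjusted p = 0.0168, limma). Gramd1a had -0.53, which became -0.42 and lost its call (adjusted p = 0.0548, limma) when wild-type replicate 1 was left out. It lies on chromosome 7 and was 0.02 above the median of that chromosome. Of 9 genes listed as SREBP-responsive outside sterol synthesis 5 fell and 3 rose. The list goes by name, Mylip included, and a response of its genes to SREBPs was not tested. Fads2, a fatty acid desaturase gene, fell from 1780.3 and 1718 to 857.5 and 846, a difference of -1.02 ± 0.05 (SE, adjusted p = 1.99e-07, limma). Fads1, Rdh11, Tmem97 and Srebf1 completed the genes that fell, with -0.17, -0.66, -0.78 and -0.55. Fads1 was not called with quantile normalization (-0.03, adjusted p = 0.542), with the mean of its probe sets (0.0827) or without a variance trend (0.0862, limma for all). Tmem97, a sterol-regulated membrane protein gene, read 371 and 362 against 196.5 and 218. Elovl6, Acsl3 and Mylip rose by 0.96, 0.80 and 0.65, and with the mean of probe sets Elovl6 was 0.63 and Acsl3 0.52. Srebf1 encodes SREBP1, the relative of SREBP2 that favours fatty acid genes, and its signals of 539 and 566 went to 374 and 373.

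**Figure D4:**
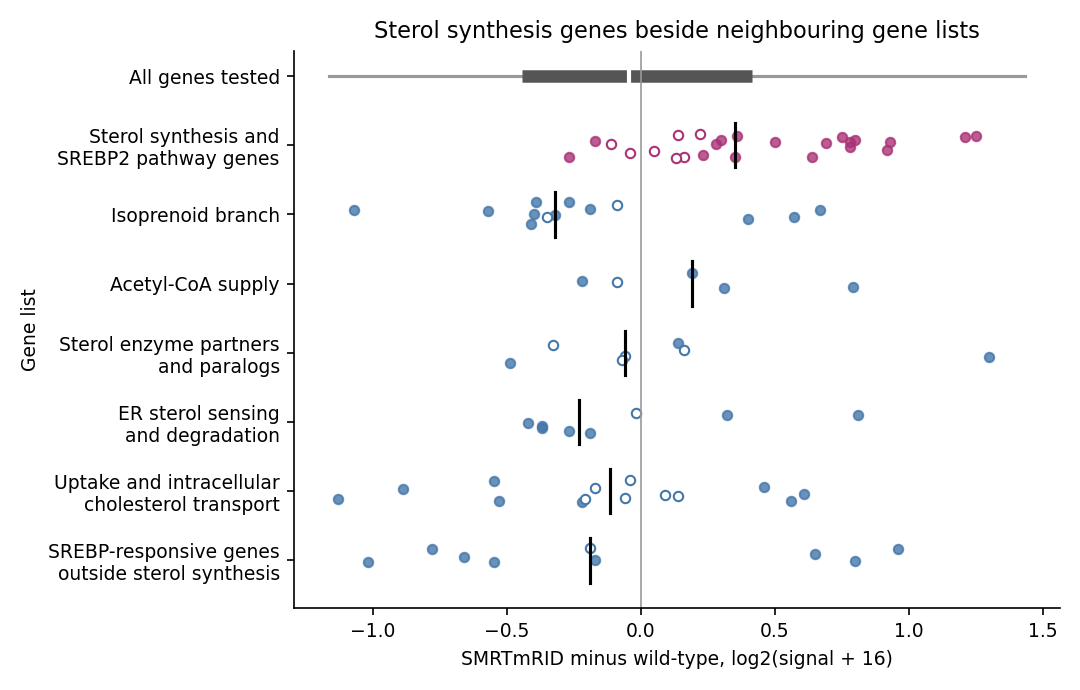
Log2 difference (SMRTmRID minus wild-type, log2(signal + 16)) of the 25 sterol synthesis and SREBP2 pathway genes and of 6 neighbouring lists, 1 point per gene (filled where it passed the test, open where not, vertical positions jittered) with the list median as a black line; the grey bars at the top show the 5th to 95th percentile (-1.16 to 1.43) and the quartiles (-0.45 and 0.42) of all genes tested. The median of the pathway genes is 0.35, that of the isoprenoid branch -0.32 and that of the list named SREBP-responsive -0.19.

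**Figure D5:**
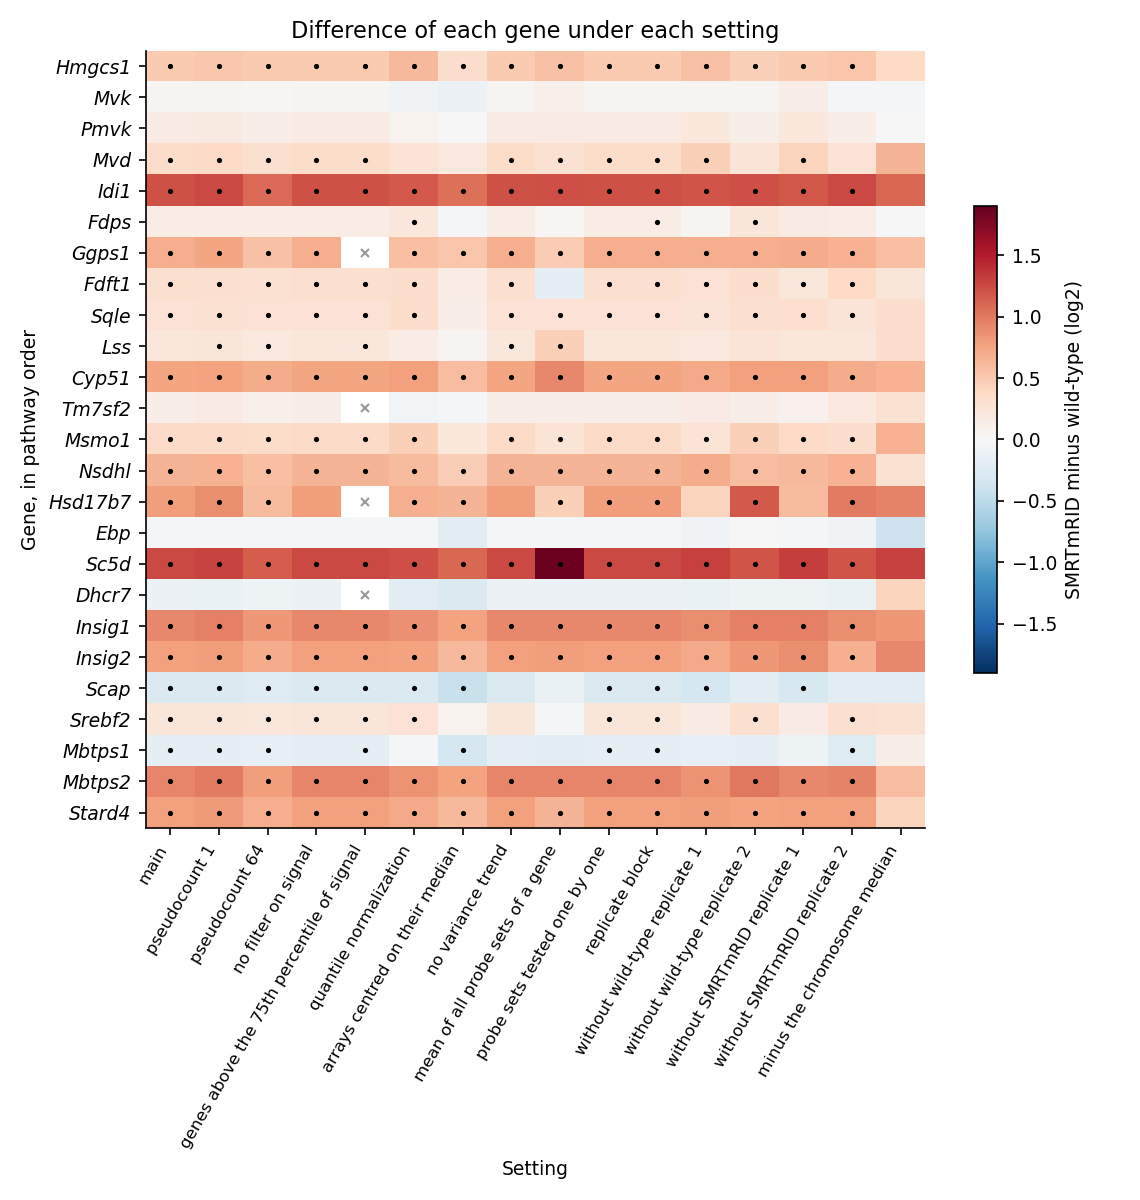
Log2 difference of the 25 genes (rows, pathway order) under the main setting and 15 others (columns), coloured from blue (lower in SMRTmRID) to red (higher); a dot marks an adjusted p under 0.05 by limma and a cross a gene under the filter of that setting, and the last column, with the chromosome median subtracted, has no test. The rows of Idi1, Sc5d, Insig1, Insig2, Mbtps2, Cyp51 and Stard4 are red throughout, while Mvk, Pmvk, Fdps and Tm7sf2 change colour with the scaling.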

How the data were processed

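Total RNA of wild-type and SMRTmRID cells was measured on 4 biotin-labelled arrays, 2 technical replicates per genotype, grouped by their titles. Per the submitters' processing notes the deposited intensity values are MAS5 signals, 1 for each probe set on each array; their 2% trimmed mean was 200.0 on every array. Detection calls were not used here. Of 45101 probe sets, 64 controls were left out, and genes were named from probe sets with 1 symbol in GEO's platform annotation. Each gene was represented by its brightest probe set, and 11057 genes above the median of all values (35.1) were tested. Signals became log2(signal + 16) and genotypes were compared over all arrays (limma 3.58.1, R 4.3.3, lmFit and eBayes with a trend), two-sided, Benjamini-Hochberg adjusted over all genes tested, called under 0.05. The fit was also run on simulated data with independent noise and known changes in few genes. Those settings differ from these arrays, so that run does not vouch for the calls given here. With 4 arrays, their number limits the precision. The genes described and the lists were chosen with earlier results of these data known. Full values were given for genes called with a difference over 0.5 and for regulators, and up to 3 called genes per neighbouring list with the largest differences were named; other genes of those lists were named after their values were seen. Replicate numbers were not used as pairs in the main fit. Deviations of same-numbered arrays correlated at 0.012, and the titles do not say whether those arrays were handled together. Alternatives were those given at the end, of which the chromosome medians and the test above 0.3 were chosen after seeing the data. Promoters came from a RefSeq table (GRCm38.p6). Figures used matplotlib 3.10.9. Some items are not reported here.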

Additional observations from a re-analysis of the deposited data

How the results depend on the processing

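The 16 genes called higher numbered 10 to 17 over 15 other settings and the 2 called lower 0 to 2. The 2 became 1 without the filter and with quantile normalization, and 0 without a variance trend and with the mean of all probe sets. Leaving out each array in turn gave 14 to 16 higher and 0 to 1 lower, the 0 without wild-type replicate 2. Asking for a change above 0.3 gave 10 higher and 0 lower, 2083 and 2168 over all genes, and 10 and 10 in the neighbouring lists. With array medians the SMRTmRID arrays lay above for 13 genes, not 20, and the share of all genes with that scaling is not given here. The replicate block gave 17 higher and 2 lower (3433 and 3987 over all genes) and, of the 25 genes, changed the call of Fdps alone. Signs turned for Mvk (-0.06 with quantile normalization, -0.11 with array medians, -0.03 without SMRTmRID replicate 2), Tm7sf2 (-0.05 and -0.03 with those scalings), Pmvk (-0.01) and Fdps (-0.02) with array medians, and Fdft1 (-0.17) and Srebf2 (-0.02) with the mean of probe sets. Relative to chromosome medians they turned for Mvk (-0.04), Fdps (-0.01), Dhcr7 (0.43) and Mbtps1 (0.13), and Pmvk came to 0.00. Among called genes of the neighbouring lists Cyb5r3 turned with array medians (-0.03), and Erlin1 (-0.02) and Npc2 (0.24) with the mean of probe sets. The cause was not tested. The number of arrays, 2 per genotype, limits the precision.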
